A study of Mus musculus with 23 samples.

Results

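Mucosal lymphocyte homing genes encode the signals that bring lymphocytes into the gut wall, and 10 of them were followed here in mouse colon. They were chosen as *Ccl28* and the genes that work beside it in homing to mucosal tissues, and all 10 were found by symbol among the 55450 genes of the deposited table. They are the chemokines *Ccl28*, *Ccl25* and *Ccl20*, the chemokine receptors *Ccr10*, *Ccr3*, *Ccr9* and *Ccr6*, the vessel ligand *Madcam1* and the integrin chains *Itga4* and *Itgb7*.

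All mice were male C57BL/6 animals of the genotype Cdx2Apcf/w, aged 6 to 8 weeks at the start and fed a 60% high-fat diet (HFD), in which Cre driven by the *Cdx2* promoter deletes 1 floxed copy of *Apc* in colon epithelium. After antibiotic water, per the methods of the study, they were colonized with *Bacteroides fragilis* (BF) strain 638R that carried either an empty vector (BF BSHlow, bsh- in the labels) or a *bsh* gene, which encodes bile salt hydrolase (BF BSHhigh, bsh+). After 12 weeks there were 4 libraries each of BF BSHlow non-tumor tissues, BF BSHhigh non-tumor tissues and BF BSHlow tumors, and 3 of BF BSHhigh tumors, called a, b and c. Normal colon after 2 weeks gave another 4 libraries per strain, 23 in all. No group was free of the colonization, of HFD or of the *Apc* allele, so that every comparison is within that background. The labels do not say which libraries share a mouse, and p-values measure the spread between libraries. In the deposited header the names of BF BSHlow tumors stand over the BF BSHhigh tumor columns, which were assigned as a group through the supplementary data of the study.

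Lymphocytes that enter the gut carry a homing code. The integrin α4β7, made of the chains encoded by *Itga4* and *Itgb7*, binds MAdCAM-1 on the venules of the gut and its lymphoid tissue. Chemokines then select the cells: CCL28 from the epithelium of the colon and of glands attracts cells with CCR10, among them plasma cells that make IgA, and also cells with CCR3. CCL25 and its receptor CCR9 are best known from the small intestine. CCL20 is made by the epithelium over lymphoid follicles and attracts CCR6 cells, among them B cells.

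The libraries held 12401388 to 17903008 expected counts (median 15874872). Levels are given as CPM, that is counts scaled to the same library total, after TMM scaling over the 23 libraries. A member was counted as changed where the edgeR quasi-likelihood test, adjusted over all genes tested, gave a p under 0.05 and the log2 fold change was beyond 1 in size. In bulk tissue, fewer cells of a type and less RNA per cell cannot be told apart. The epithelial list (*Epcam*, *Cdx2*, *Vil1* and others, 7 genes) summed to at least 3059 CPM in every library. It was lower in tumors (3059 to 5862 CPM) than in non-tumor tissues (6421 to 8884 CPM) and normal colon (10956.5 to 14828 CPM).

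The positions of the members in GRCm38 show that they are spread over separate chromosomes, apart from a pair of receptors. *Ccl28* lies on chromosome 13 (119623819 to 119654359, plus strand), *Madcam1* on chromosome 10 (79664559 to 79668537, plus strand) and *Itgb7* on chromosome 15 (102215995 to 102231944, minus strand). *Ccr9* (123678439 to 123784330) and *Ccr3* (124021972 to 124031689) both lie on chromosome 9. Exons of *Ccl25*, *Itga4* and *Ccr9* overlap exons of other genes. On the opposite strand, *Ccl25* shares 204 bases with *Elavl1* and *Itga4* shares 1124 with *Cerkl*. There *Ccr9* shares 1932 bases with *AC165425.1* and 22 with *Slc6a20a*, and on its own strand 269 with *Gm17200*. The strand setting of the counting is not given in the sources used here. No library had a count other than a whole number for any member.

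The windows before the starts of *Ccl28*, *Ccl20* and *Madcam1* are shown because these members are a vessel signal and the epithelial chemokines with the larger differences between tumors, although *Ccl20* did not pass the test between tumors. They are the 250 bases before each start in the RefSeq table of GRCm38.p6, which holds 9 of the 10 members, read 5′ to 3′ on the plus strand. Capitals mark matches to the NF-kB consensus, all on the minus strand, searched on both strands together with the TCF/LEF core TCAAAG and the CDX motif TTTATNG. The windows lie at chr13:119623569-119623818, chr1:83116516-83116765 and chr10:79664309-79664558.
Ccl28: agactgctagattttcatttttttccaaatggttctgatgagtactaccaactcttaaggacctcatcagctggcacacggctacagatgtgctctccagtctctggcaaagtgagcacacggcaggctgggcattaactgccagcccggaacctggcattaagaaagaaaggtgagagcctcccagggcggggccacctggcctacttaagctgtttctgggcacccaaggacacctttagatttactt
Ccl20: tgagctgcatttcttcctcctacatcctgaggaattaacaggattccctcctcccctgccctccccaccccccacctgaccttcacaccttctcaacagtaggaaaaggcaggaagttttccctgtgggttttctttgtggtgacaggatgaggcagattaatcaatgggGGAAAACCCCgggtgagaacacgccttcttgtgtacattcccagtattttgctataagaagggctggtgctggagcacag
Madcam1: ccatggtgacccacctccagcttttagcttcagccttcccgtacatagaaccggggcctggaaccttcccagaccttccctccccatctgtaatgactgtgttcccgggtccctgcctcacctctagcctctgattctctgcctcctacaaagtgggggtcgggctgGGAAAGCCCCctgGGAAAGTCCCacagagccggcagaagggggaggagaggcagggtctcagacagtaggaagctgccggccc
The window of *Madcam1* held 2 NF-kB matches, from base 83 to 74 and from base 70 to 61 before the start, and that of *Ccl20* held 1, from base 80 to 71. Such a match was in 3.90% of 32851 windows of the same length. None of the motifs was matched in the window of *Ccl28*, while the TCF/LEF core was in 13.8% and the CDX motif in 9.81% of all windows. Among the other members, the NF-kB consensus was matched for *Ccr3* (1 of 1 window) and *Ccr6* (1 of 2), the TCF/LEF core for *Ccl25* (1 of 2) and *Ccr6* (2 of 2), and the CDX motif for *Ccl25* (1 of 2). A match of letters is a description and shows no binding.

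*Ccl28* was the most abundant chemokine of the set in tissue without tumor. Per kilobase of exon, its mean level was 58.2 ± 11.4 CPM (SD, n = 4) in BF BSHlow non-tumor tissues, against 4.91 for *Ccl20* and 0.456 for *Ccl25*, the other members of its kind. In BF BSHlow tumors the per-kilobase means of *Ccl28* and *Ccl25* were 0.429 and 0.470 CPM, and that of *Ccl20* was 1.62 CPM. These lengths join all annotated exons of a gene, and levels between genes are therefore approximate.

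**Figure D1:**
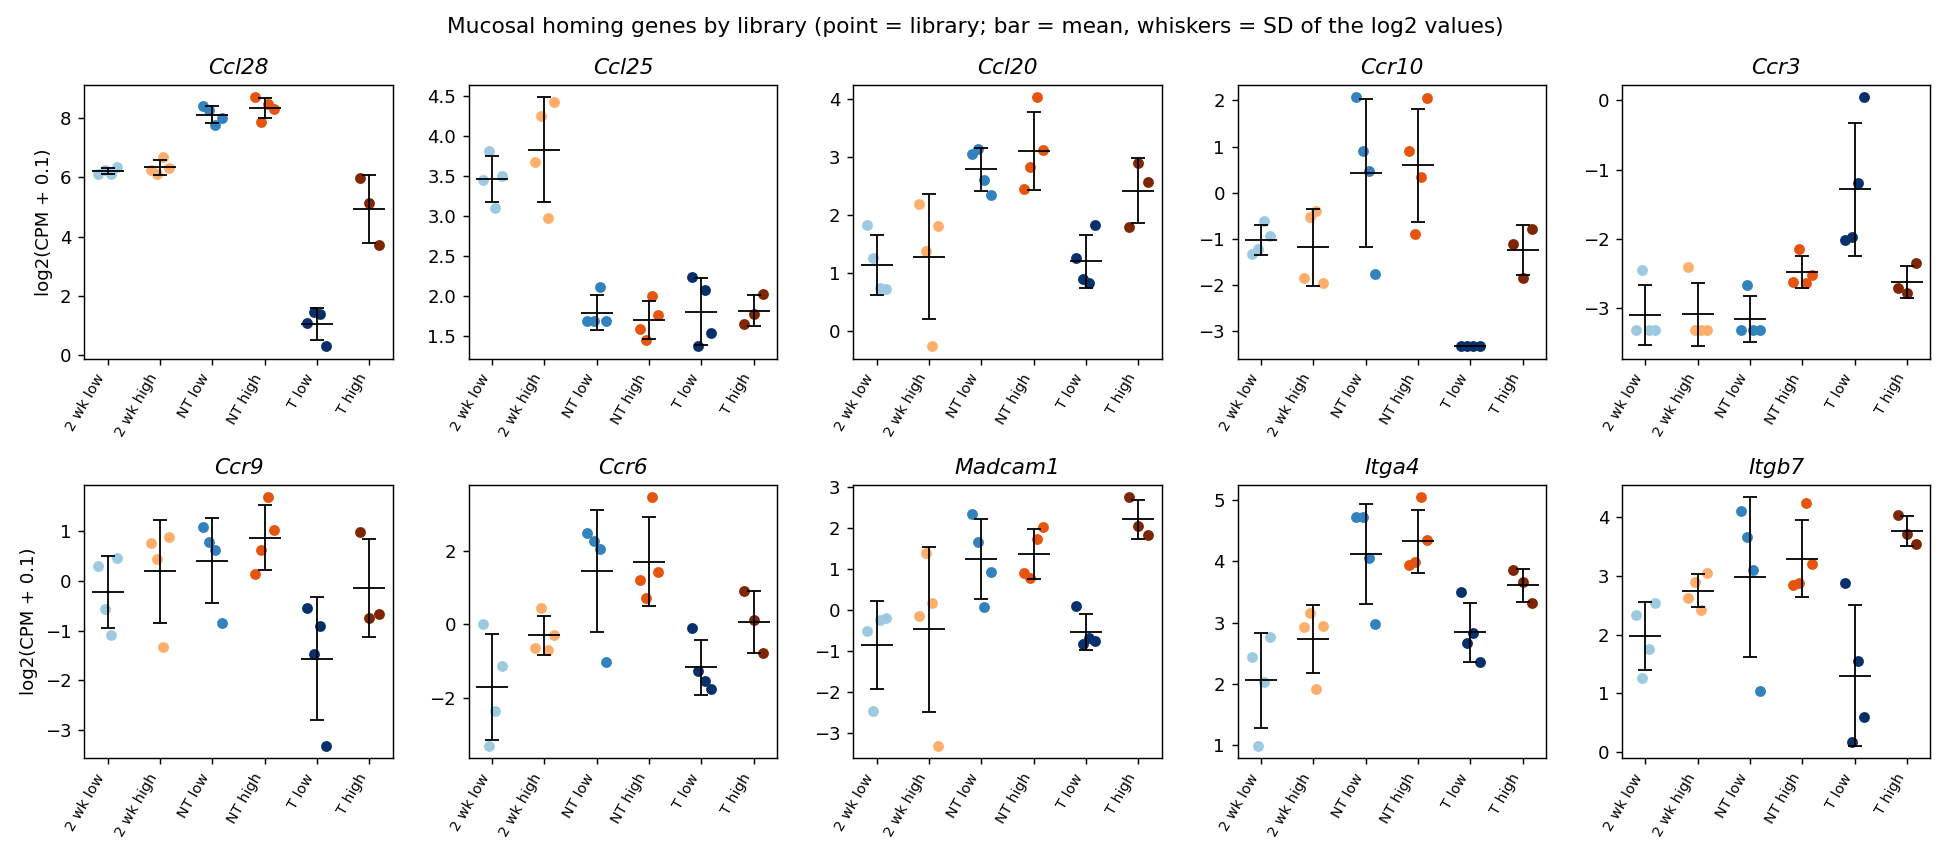
Levels of the 10 members in every library, as log2(CPM + 0.1), for normal colon after 2 weeks (2 wk), non-tumor tissues (NT) and tumors (T) of BF BSHlow (low) and BF BSHhigh (high) mice. Points are libraries, bars are means and whiskers are SDs of the log2 values. *Ccl28* is lowest in the 4 BF BSHlow tumors, between 1.13 and 2.64 CPM, and *Ccr10* is at 0 CPM there.

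The first comparison asks which homing genes differ between tumors of mice with and without the added *bsh* gene. *Ccl28* and *Madcam1* were higher in BF BSHhigh tumors, and no member was lower past the thresholds. That is 2 of the 8 members tested, where 0.463% of all 15325 genes tested were higher and 0.0131% lower past both thresholds (0.476% in either direction). The median log2 fold change of the 8 was 1.48, beside -0.03 over all genes tested. *Ccr10* and *Ccr3* were removed by the filter on low counts.

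*Ccl28* was at 2.00, 2.64, 2.54 and 1.13 CPM in BF BSHlow tumors and at 62.7, 34.8 and 12.9 CPM in BF BSHhigh tumors a, b and c. The lowest BF BSHhigh tumor was above the highest BF BSHlow tumor, and the BF BSHhigh tumors differed among themselves by more than the BF BSHlow tumors did. The log2 fold change was 4.13 ± 0.53 (SE, adjusted p = 0.0344 from edgeR). *Madcam1*, the vessel ligand, was at 0.978, 0.466, 0.527 and 0.490 CPM against 6.67, 4.08 and 3.49 CPM. Its groups were also apart, with a log2 fold change of 2.91 ± 0.39 (adjusted p = 0.0365 from edgeR).

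Both calls are fragile in a design of 4 against 3 libraries. Leaving out any BF BSHlow tumor, or BF BSHhigh tumor a or b, left 0 members past the thresholds, and only without tumor c did both remain. Calls over all genes moved in the same way. From 73 they fell to 0, 3, 0 and 0 without BF BSHlow tumors 1 to 4. They were 6 and 1 without BF BSHhigh tumors a and b, and 240 without tumor c. Over every alternative run, the log2 fold change of *Ccl28* stayed between 3.51 and 4.53 and that of *Madcam1* between 2.59 and 3.25. Adjusted p-values of *Ccl28* were up to 0.115 with a library left out and from 3.01e-14 (DESeq2) to 0.143 (limma-voom) over the other settings. Those of *Madcam1* were up to 0.115 with a library left out and from 6.35e-08 (DESeq2) to 0.0469 (limma-voom).

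The integrin chain *Itgb7* was at 7.24, 1.04, 2.83 and 1.42 CPM in BF BSHlow tumors and at 16.2, 13.0 and 11.5 CPM in BF BSHhigh tumors. These groups did not overlap either, but the difference of 2.08 ± 0.61 (log2) did not pass the test (adjusted p = 0.197 from edgeR). It passed with all 23 libraries in the fit (adjusted p = 0.0376) and with DESeq2 (0.0142). Of the 8 members tested, 3 (*Ccl28*, *Madcam1* and *Itgb7*) had every BF BSHhigh tumor above every BF BSHlow tumor, and so had 7.91% of all genes tested. Its partner chain *Itga4* overlapped between the groups, at 5.04 to 11.2 against 9.84 to 14.3 CPM, with a log2 fold change of 0.70 (adjusted p = 0.366).

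*Ccl20*, the follicle chemokine, was at 2.30, 1.76, 1.68 and 3.48 CPM in BF BSHlow tumors and at 3.39, 7.40 and 5.83 CPM in BF BSHhigh tumors. The groups touched at 1 library on each side, and the log2 fold change of 1.25 ± 0.37 did not pass (adjusted p = 0.203). Its receptor *Ccr6* had a log2 fold change of 1.41 (adjusted p = 0.420), and *Ccr9* one of 1.55 (adjusted p = 0.528), with overlapping groups in both. Without BF BSHhigh tumor a these values were 0.86 and 0.65. *Ccl25* was nearly level, with a log2 fold change of -0.04 and an interval from -0.73 to 0.64.

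*Ccr10*, the receptor of CCL28, had 0 counts in each of the 4 BF BSHlow tumors. It had 7, 4 and 10 counts in BF BSHhigh tumors a, b and c, or 0.365, 0.179 and 0.478 CPM. Against a floor of 3 counts per library, *Ccr10* was at least 2.30-fold lower in BF BSHlow tumors. Without the filter on low counts its adjusted p was 0.0974, and with all 23 libraries in 1 fit, where it was kept by the filter, it passed (0.0287). *Ccr3*, the other receptor of CCL28 and a marker of eosinophils, went the opposite way. It had 3, 3, 7 and 19 counts in BF BSHlow tumors and 1, 1 and 2 in BF BSHhigh tumors. The ratio of its counts per depth was 6.16 (95% exact interval 2.18 to 24.0, counting error only), and without the filter the adjusted p was 0.346. Replicate 4 of the BF BSHlow tumors holds 19 of those 32 counts. The eosinophil list (7 genes) summed to 0.466 to 1.08 CPM in BF BSHlow tumors and 0.621 to 3.86 CPM in BF BSHhigh tumors, with *Ear1* at 0 in both groups. Of its 7 genes, 3 or 4 were at 0 in each BF BSHlow tumor and 2 or 3 in each BF BSHhigh tumor. The filter left 0 of them to test between tumors. Sums this near the floor are a description, and the part of eosinophils in the counts of *Ccr3* was not tested.

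Cell type markers moved with these members, and their part in the differences was not tested. The summed goblet cell list (*Muc2*, *Zg16*, *Clca1*, *Fcgbp*, *Tff3*, *Spink4*) was between 74.9 and 184 CPM in BF BSHlow tumors and between 670 and 4604 CPM in BF BSHhigh tumors. Its order in BF BSHhigh tumors was the order of *Ccl28*, highest in a at 4604, then 1400 in b and 670 in c. The T cell list (8 genes, among them *Cd3e* and *Foxp3*) summed to 7.24 to 21.9 CPM against 37.0 to 47.5 CPM, with 0 of 8 past the test. B cell markers (7 genes) summed to 1.19 to 4.07 against 4.21 to 15.7 CPM, with 0 of the 3 tested past the test. The 6 endothelial markers summed to 186 to 210 against 192 to 222 CPM (0 of 6 past the test), so that the endothelial ranges overlapped where *Madcam1* was apart. In each of these lists no marker was at 0 in a whole group. Lists of epithelial cell types moved as well, while the epithelial list overlapped (3059 to 5240 against 3943 to 5862 CPM, 0 of 7 past the test). Of the goblet cell genes 2 of 6 passed the test, higher in BF BSHhigh tumors, and of the differentiated colonocyte genes 2 of 5 (median log2 fold change 5.67), with sums of 35.9 to 113 against 74.7 to 313 CPM. Small intestine markers (sums of 12.7 to 35.8 against 45.5 to 125 CPM) were apart and higher in BF BSHhigh tumors, and squamous markers (62.5 to 188 against 34.9 to 44.9 CPM) were apart and lower, with 0 of 3 and 0 of 4 genes past the test.

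Of 5 plasma cell genes tested 1, *Jchain*, passed, and the genes named here were singled out after their values were seen. *Igha*, the constant region of IgA, was at 12.5, 2.18, 24.7 and 1.52 CPM in BF BSHlow tumors and at 443, 375 and 614 CPM in BF BSHhigh tumors (log2 fold change 5.53 ± 0.91, adjusted p = 0.0511). *Jchain*, which joins IgA into dimers, rose by 5.60 ± 0.70 (log2, adjusted p = 0.0343 from edgeR, with no library left out in turn). *Sdc1*, which epithelium also makes, was at 422 to 677 against 462 to 628 CPM and dominated the sum of the list in tumors. *Derl3* was also close to level, at means of 1.15 and 1.28 CPM, *Mzb1* was at 0.195 and 1.55 CPM (log2 fold change 2.92, adjusted p = 0.0687), and *Tnfrsf17* had at most 1 and 5 counts in a library and was not tested. *Ccr10* was thus at 0 in the libraries with *Igha* below 25 CPM and detected in each of the others.

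**Figure D2:**
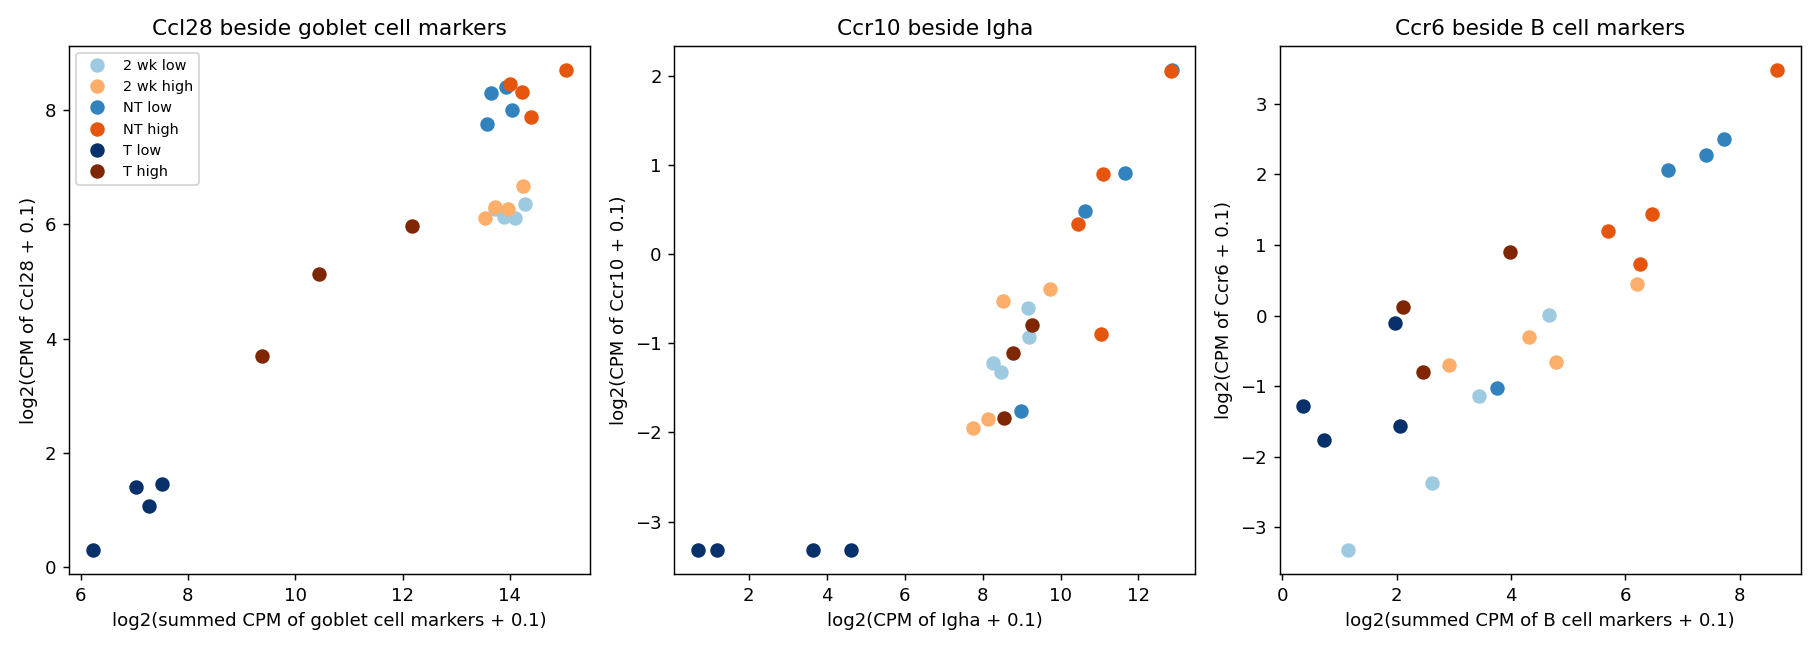
Levels of *Ccl28*, *Ccr10* and *Ccr6* by library beside markers of goblet cells (summed), *Igha* and markers of B cells (summed), all as log2(CPM + 0.1), with libraries coloured by group. The 3 BF BSHhigh tumors lie between the BF BSHlow tumors and the non-tumor tissues on the *Ccl28* panel. On the *Ccr10* panel the 4 BF BSHlow tumors, with 0 CPM of *Ccr10*, are the lowest points.

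In non-tumor tissues of the same age, no member passed the thresholds between the strains. This was 0 of 9 members tested and 0% of 14934 genes by edgeR, with 0 members and 1378 genes at an unadjusted p under 0.05, and 59 genes past the thresholds in DESeq2. *Ccl28* was at 340, 314, 217 and 258 CPM with BF BSHlow and at 417, 236, 354 and 319 CPM with BF BSHhigh. These groups overlapped, as did those of all 9 members tested, and the log2 fold change of *Ccl28* was 0.22 with an interval from -0.21 to 0.66. *Madcam1* differed by -0.04 (interval -1.19 to 1.11) and *Itgb7* by 0.06 (interval -1.23 to 1.36). *Ccr10* differed by -0.01, with the widest interval of the set, from -1.85 to 1.83.

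The receptors varied widely from one non-tumor library to the next. *Ccr6* was at 5.57, 4.72, 4.09 and 0.390 CPM with BF BSHlow and at 2.20, 1.56, 11.04 and 2.62 CPM with BF BSHhigh. The library with most *Ccr6*, BF BSHhigh replicate 3, also had the highest B cell sum at 401 CPM, and that with least, BF BSHlow replicate 4, had the lowest at 13.4 CPM. *Ccr10* was at 4.08, 1.78, 1.30 and 0.195 CPM with BF BSHlow and at 1.76, 0.438, 1.16 and 4.04 CPM with BF BSHhigh. Its extremes also matched those of *Igha*, which was at 7394 and 7269 CPM in the 2 libraries with most *Ccr10* and at 505 CPM in the library with least. Both patterns were seen in the data and not tested.

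Normal colon after 2 weeks likewise gave no member past the thresholds between the strains, 0 of 6 tested, where 1 of 13753 genes, or 0.00727%, was past them. *Ccl28* was at 69.6, 76.8, 69.3 and 81.9 CPM with BF BSHlow and at 76.6, 68.7, 102 and 78.9 CPM with BF BSHhigh. The log2 fold change of 0.12 had the narrowest interval of the set, from -0.16 to 0.40. All 6 differences were positive, where 6808 of all 13753 genes had a positive one. That of *Itgb7* was the only one of the 6 at an unadjusted p under 0.05 (0.71 ± 0.28 log2, adjusted p = 0.711 from edgeR). *Ccr10*, *Ccr3*, *Ccr6* and *Madcam1* were removed by the filter there, with at most 9, 1, 17 and 34 counts in a library. DESeq2 also called 0 of the members tested here.

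**Figure D3:**
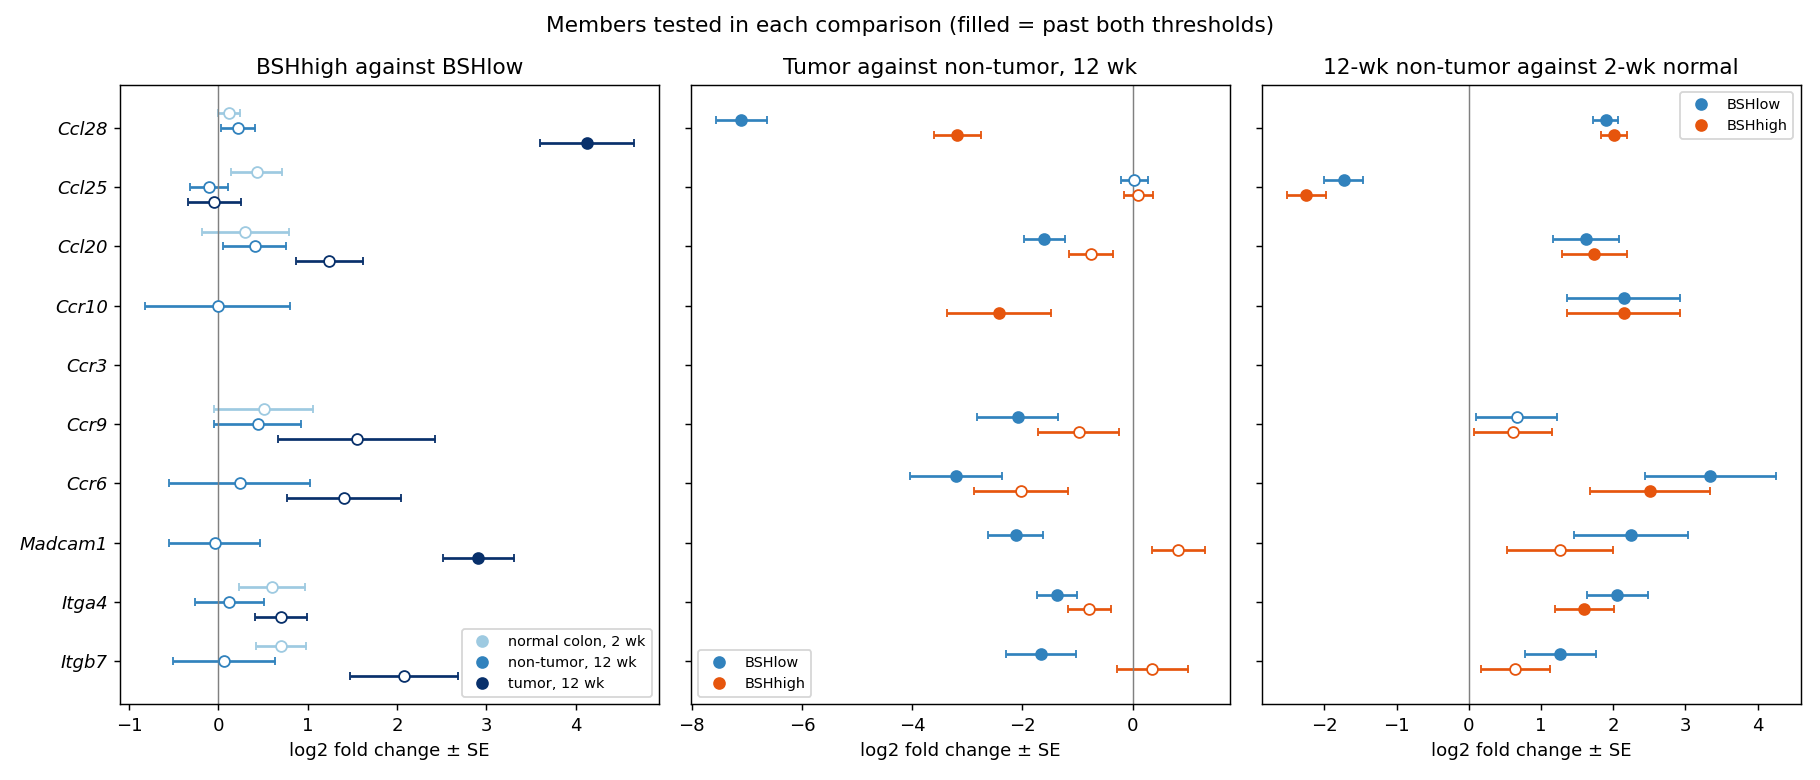
Log2 fold changes of the members tested in each comparison, with SE as whiskers and filled points for those past both thresholds. For tumors of the strains, the points of *Ccl28* (4.13) and *Madcam1* (2.91) are the only filled ones, and *Ccr10* in BF BSHlow tumors is left out of the second because all 4 libraries are at 0.

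Tumors were next compared with non-tumor tissues within each strain, with the 15 libraries of 12 weeks in 1 fit. In BF BSHlow mice, 8 of 9 members tested were lower in tumors, where 19.5% of all 16455 genes tested were lower past both thresholds (36.2% in either direction). The median log2 fold change of the 9 was -2.08, also with *Ccr10* at its bound, beside 0.04 over all genes. In BF BSHhigh mice 2 of 9 members, *Ccl28* and *Ccr10*, were lower, where 14.8% of all genes were (29.4% in either direction), and the median was -0.79 beside 0.04. *Ccr10* was removed by the filter in tumors alone and was kept here through the non-tumor libraries, where it was higher. Its falls were thus favored by the filter, in the counts and in the medians. *Ccl28* fell in both strains, by 7.10 ± 0.47 on the log2 scale in BF BSHlow mice (adjusted p = 3.23e-08) and by 3.18 ± 0.42 in BF BSHhigh mice (adjusted p = 2.68e-05, both from edgeR). Its mean in tumors was 0.737% of that in non-tumor tissues with BF BSHlow, 2.08 ± 0.69 against 282 ± 55.2 CPM (SD, n = 4), and 11.1% with BF BSHhigh, 36.8 ± 24.98 (SD, n = 3) against 332 ± 75.5 CPM (SD, n = 4).

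*Ccr10* was at least 12.4-fold lower in BF BSHlow tumors than in BF BSHlow non-tumor tissues, against the floor of 3 counts per library (adjusted p = 0.000453 from edgeR). In BF BSHhigh mice it fell by 2.42 ± 0.94 (log2, adjusted p = 0.0468 from edgeR), a call that was lost with library size scaling (adjusted p = 0.0722), without the filter on low counts (0.0524), with limma-voom (0.0840) and without any of 6 of the 7 libraries (up to 0.144), all but BF BSHhigh non-tumor replicate 2. *Ccr6* had a fall of 3.20 ± 0.84 in BF BSHlow mice (adjusted p = 0.00385), and in BF BSHhigh mice its log2 fold change of -2.03 ± 0.85 did not pass (adjusted p = 0.0558). *Ccr6* passed there with DESeq2 (0.0212), with all 23 libraries (0.0478) and without non-tumor replicate 1 or 2 (0.0491 and 0.0391), and was at -0.99 without non-tumor replicate 3 (0.287). *Ccr9* fell by 2.08 ± 0.73 with BF BSHlow (adjusted p = 0.0221), though not without non-tumor replicate 1 (0.0564), and differed by -0.98 with BF BSHhigh (adjusted p = 0.272). *Ccr3* was filtered here as well. It had 1 count in the 4 BF BSHlow non-tumor libraries together against 32 in the tumors, and without the filter its log2 fold change was 4.11 ± 0.98 (adjusted p = 0.00246 from edgeR).

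Of the adhesion genes, *Madcam1* and *Itgb7* passed the test in BF BSHlow mice and not in BF BSHhigh mice. *Madcam1* fell by 2.12 ± 0.50 with BF BSHlow (adjusted p = 0.00176) and had a log2 fold change of 0.83 ± 0.48 with BF BSHhigh (adjusted p = 0.158). Its mean in BF BSHhigh tumors, 4.75 ± 1.69 CPM (SD, n = 3), stood beside 2.65 ± 1.14 CPM in BF BSHhigh non-tumor tissues (SD, n = 4), and the ranges overlapped. *Itgb7* fell by 1.66 ± 0.63 with BF BSHlow (adjusted p = 0.0316) and had 0.36 ± 0.65 with BF BSHhigh (adjusted p = 0.664). The BF BSHlow call of *Itgb7* was lost with library size scaling (adjusted p = 0.0816), with limma-voom (0.0511), without non-tumor replicate 1 or 2 and without tumor replicate 2, 3 or 4 (0.0616 to 0.105), and its log2 fold change was -2.52 without tumor replicate 1. *Itga4* fell by 1.37 ± 0.37 (adjusted p = 0.00442) and *Ccl20* by 1.60 ± 0.37 (adjusted p = 0.00174) with BF BSHlow, against -0.79 and -0.75 with BF BSHhigh, neither past the threshold (adjusted p = 0.101 and 0.118).

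*Ccl25* was the member that did not fall in BF BSHlow mice, and it was close to level in BF BSHhigh mice too. Its means were 3.39, 3.18, 3.50 and 3.44 CPM in BF BSHlow and BF BSHhigh non-tumor tissues and in BF BSHlow and BF BSHhigh tumors. The log2 fold changes between tumor and non-tumor tissues were 0.03 (interval -0.48 to 0.55) and 0.10 (interval -0.45 to 0.66). Markers of several cell types moved with the falls. The goblet cell sum was between 12228 and 16896 CPM in BF BSHlow non-tumor tissues and between 74.9 and 184 CPM in the tumors, with all 6 genes lower (median log2 fold change -6.72). With BF BSHhigh it was between 16416 and 34012 CPM against 670 to 4604 CPM, also with all 6 lower (median -3.25). Differentiated colonocyte markers (*Slc26a3*, *Aqp8* and others) summed to 1366 to 3972 CPM in non-tumor tissues and to 35.9 to 313 CPM in tumors, with 5 of 5 tested lower in BF BSHlow mice and 4 of 5 in BF BSHhigh mice. In the same tumors the B cell sum was below 16 CPM, against 13.4 to 401 CPM in non-tumor tissues, the squamous list was between 34.9 and 188 CPM against at most 3.36 CPM, and smooth muscle markers were between 117 and 346 CPM against 1523 to 8512 CPM. Of the 7 epithelial list genes, 5 were lower and 1 higher in BF BSHlow tumors, and 2 were lower and 1 higher in BF BSHhigh tumors. The part of these markers in the falls was not tested.

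Whether the effect of the strain differs between tumor and non-tumor tissues was tested by an interaction term in the same fit. *Ccl28* passed, with 3.92 ± 0.55 (log2, adjusted p = 0.00595 from edgeR), as 1 of 9 members tested, where 0.972% of all genes were higher and 0.00608% lower past both thresholds (0.978% in either direction). The call held without each of the 15 libraries and was lost with limma-voom (adjusted p = 0.126), which called 0 genes in all. *Madcam1* had an interaction of 2.96 ± 0.69 (adjusted p = 0.0630), and its adjusted p over the alternatives was between 0.00339 with DESeq2 and 0.210 without BF BSHhigh tumor a. *Itgb7* had 2.02 ± 0.90 (adjusted p = 0.483). All 9 terms were positive, where 8873 of all 16455 genes had a positive term. The median of the 9 was 1.17 beside 0.03 over all genes, also with *Ccr10* at its bound. *Ccr10* was kept by the filter here through the non-tumor libraries. By this test the falls in the 2 strains differed for *Ccl28*, and no difference was shown for the other members.

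Non-tumor tissues after 12 weeks were compared with normal colon after 2 weeks, where time of colonization, time on HFD and age change together. In BF BSHlow mice 7 of 9 members tested were higher and 1, *Ccl25*, was lower, where 17.0% of 15533 genes were higher and 8.06% lower (25% together). In BF BSHhigh mice 5 were higher and 1, again *Ccl25*, was lower, where 16.8% of genes were higher and 7.56% lower (24.4% together). The medians were 1.90 and 1.60 on the log2 scale, beside 0.000328 and 0.03 over all genes tested. *Ccr10*, *Ccr6* and *Madcam1* were removed by the filter in normal colon alone and were kept here through the 12-week libraries. Calls of these genes as higher at 12 weeks were thus favored by the filter, and the medians hold them. The 2 comparisons share no library, but both come from 1 fit of all these libraries and share its filter, scaling and estimate of the spread.

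*Ccl28* was between 68.7 and 102 CPM in the 8 libraries of 2 weeks and between 217 and 417 CPM in the 8 non-tumor libraries of 12 weeks. No library of 1 age reached the range of the other, and the log2 fold changes were 1.90 ± 0.18 with BF BSHlow and 2.01 ± 0.18 with BF BSHhigh (adjusted p = 1.09e-06 and 7.85e-07 from edgeR). *Ccl25* went the other way, from 7.75 to 21.2 CPM at 2 weeks to 2.63 to 4.23 CPM at 12 weeks. It fell by 1.73 ± 0.27 and by 2.25 ± 0.27 (log2, adjusted p = 0.000102 and 1.19e-05). Its receptor *Ccr9* did not follow, with 0.67 ± 0.56 and 0.61 ± 0.54 (adjusted p = 0.342 and 0.366) and overlapping groups.

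*Ccl20* rose by 1.62 and 1.74 (adjusted p = 0.00852 and 0.00495), *Ccr6* by 3.35 and 2.51 (adjusted p = 0.00661 and 0.0201) and *Itga4* by 2.06 and 1.60 (adjusted p = 0.000969 and 0.00454), in each case with BF BSHlow first. *Ccr10* rose by 2.15 in both (adjusted p = 0.0331 and 0.0317). *Madcam1* rose by 2.25 ± 0.78 with BF BSHlow (adjusted p = 0.0268) and had 1.26 ± 0.73 with BF BSHhigh (adjusted p = 0.166). *Itgb7* rose by 1.27 ± 0.50 (adjusted p = 0.0448) and had 0.65 ± 0.48 (adjusted p = 0.284). With BF BSHlow, the calls of *Ccr10*, *Madcam1* and *Itgb7* were all lost without non-tumor replicate 1 or 2 and without normal colon replicate 1 or 2, which left 5 members (adjusted p from 0.0504 to 0.167). *Itgb7* was also lost without replicate 3 of either group (0.0564 and 0.0950) and with all 23 libraries (0.0642), and *Ccr10* without normal colon replicate 4 (0.0620). With limma-voom these 3 and *Ccr6* were lost (0.0676 to 0.252). With the replicate number as a block, in a fit of both groups alone, *Madcam1* (0.0580) and *Itgb7* (0.237) were lost and *Ccr10* was removed by the filter. With BF BSHhigh, *Ccr6* was lost without non-tumor replicate 3 (0.137) or normal colon replicate 1 (0.0520), and *Ccr10* without non-tumor replicate 4 (0.144) or normal colon replicate 1 or 4 (0.0809 and 0.0851). Limma-voom lost *Ccr10* (0.135) and *Ccr6* (0.114), the block lost *Ccl20* (0.0795), and *Madcam1* passed without normal colon replicate 2 (0.0478). The difference between the strains in these changes was not tested.

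Tissue markers also moved between the ages. Smooth muscle markers summed to 1523 to 8512 CPM in non-tumor tissues of 12 weeks and to 6.96 to 205 CPM in normal colon of 2 weeks, endothelial markers to 57.0 to 126 against 8.96 to 58.5 CPM, and differentiated colonocyte markers to 1366 to 3972 against 9381 to 21074 CPM. *Igha* was at 505 to 7394 CPM against 214 to 849 CPM. B cell markers summed to 13.4 to 212 against 2.13 to 25.2 CPM with BF BSHlow (7 of 7 higher, median log2 fold change 3.34) and to 51.6 to 401 against 7.46 to 73.3 CPM with BF BSHhigh (4 of 7 higher). Myeloid markers summed to 29.5 to 134 against 10.3 to 27.97 CPM, with 4 of 5 higher with BF BSHlow and 5 of 5 with BF BSHhigh. The T cell list overlapped between the ages. With BF BSHlow it was at 7.34 to 33.8 against 14.1 to 32.4 CPM, with 3 of 8 higher and 1 lower (median -0.13). With BF BSHhigh it was at 10.6 to 38.4 against 24.9 to 51.6 CPM, with 1 of 8 higher and 4 lower (median -0.82). The part of these markers in the changes of the members was not tested. Goblet cell markers overlapped between the ages in both strains. With BF BSHlow they summed to 12228 to 16896 against 13444 to 20040 CPM, with 0 of 6 higher and 1 lower (median 0.10). With BF BSHhigh they summed to 16416 to 34012 against 11952 to 19540 CPM, with 2 of 6 higher and 0 lower (median 0.77). Their part was not tested either.

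The order of the *Ccl28* means was BF BSHhigh and BF BSHlow non-tumor tissues (332 and 282 CPM), then BF BSHhigh and BF BSHlow normal colon (81.5 and 74.4 CPM), then BF BSHhigh tumors (36.8 CPM) and BF BSHlow tumors (2.08 CPM). The first pair and the second pair did not differ past the thresholds. The order of *Madcam1* put BF BSHhigh tumors first at 4.75 CPM, before both non-tumor groups at 2.70 and 2.65 CPM, BF BSHhigh normal colon at 1.09 CPM, BF BSHlow tumors at 0.615 CPM and BF BSHlow normal colon at 0.551 CPM.

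The genes most like a member over the 23 libraries were named by the smallest root mean square difference between profiles of centred log2 CPM, among 14400 genes with a mean of at least 1 CPM. For *Ccl28* these were *Rep15* (0.53), *Tff3* (0.55), *Fcgbp* (0.57), *Nrap* (0.63) and *Slc6a4* (0.65), where the SD of the profile of *Ccl28* itself was 2.57. *Tff3* and *Fcgbp* are products of goblet cells, and *Slc6a4* is the serotonin transporter. *Rep15* had means of 180 and 241 CPM in BF BSHlow and BF BSHhigh non-tumor tissues, 2.57 and 18.6 CPM in tumors, and 59.1 and 79.9 CPM in normal colon of 2 weeks. For *Itgb7* the 5 genes were *Rasgrp1* (0.38), *Spn* (0.39), *Rasal3* (0.42), *Grap2* (0.45) and *Gm8995* (0.47), against an SD of 1.11. *Rasgrp1*, *Spn* and *Grap2* are genes of lymphocytes. For *Ccl20* they were *Dock10*, *Cd37*, *Lpxn*, *Kcnab2* and *Arhgap30*, between 0.58 and 0.61 against an SD of 1.01. The differences for *Madcam1* were larger, with *Gpr183* (0.75), *Duoxa2* (0.79), *Lyl1*, *Sp140* and *Cacna1d* (0.89 each). Its SD of 1.45 was also larger than those of *Itgb7* and *Ccl20*.

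Beside the members, 40 other genes of lymphocyte trafficking were read as a list. Between tumors of the strains, 1 of 34 tested passed, *2610528A11Rik*, which encodes the ligand of the colon homing receptor GPR15. It was at 0.881 to 2.05 CPM in BF BSHlow tumors and at 24.3 to 159 CPM in BF BSHhigh tumors, with a log2 fold change of 5.70 ± 0.64 (adjusted p = 0.0290 from edgeR), and its interaction term of 5.82 ± 0.64 was the 1 of 37 past the thresholds (adjusted p = 0.00147). The first of these calls was lost without any of the BF BSHlow tumors, without BF BSHhigh tumor b (adjusted p from 0.0721 to 0.104) and with limma-voom (0.145), and the second with limma-voom (0.0994) alone. The median over the 34 was 0.62. The 1 called between tumors is 2.94% of those tested, where 0.463% of all genes were higher, and for the interaction 2.7% beside 0.972%. *Gpr15* itself was at most 0.0979 CPM in BF BSHlow tumors and at most 0.143 CPM in BF BSHhigh tumors. Between the strains in non-tumor tissues and in normal colon, 0 of 35 and 0 of 25 passed by edgeR, with 0 and 5 at an unadjusted p under 0.05. Over all genes 0% and 0.00727% passed.

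Between tumor and non-tumor tissues of BF BSHlow mice, 7 of the 37 list genes tested were higher (18.9%) and 11 lower (29.7%), with a median of -0.47. Over all genes tested 16.7% were higher and 19.5% lower. The largest falls were those of *2610528A11Rik* (8.31 on the log2 scale), *Chst4*, which sulfates ligands of L-selectin (5.16), and the follicle receptor *Cxcr5* (5.005). *Ccl19*, a chemokine of lymphoid tissue, was at 0 in all 4 tumors and at least 21.7-fold lower against the floor of 3 counts per library. In BF BSHhigh mice 6 were higher (16.2%) and 8 lower (21.6%), where 14.6% and 14.8% of all genes were, with a median of 0.26. *Rarb*, a retinoic acid receptor, rose by 4.77, the endothelial selectin *Sele* rose by 3.18, *Cxcr5* fell by 3.27 and *Chst4* fell by 2.68 (adjusted p = 1.69e-07, 0.00771, 0.0101 and 0.000112 from edgeR). That of *Cxcr5* was lost with limma-voom (0.0561), and without non-tumor replicate 3 its log2 fold change was -1.99 (0.0454).

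From 2 to 12 weeks, 25 of 35 list genes were higher and 2 lower with BF BSHlow (71.4% and 5.71%, against 17.0% and 8.06% of all genes). With BF BSHhigh 19 were higher and 4 lower (54.3% and 11.4%, against 16.8% and 7.56%), and the medians were 1.85 and 1.56. In normal colon alone 25 list genes passed the filter, so that some of the 35 were kept through the 12-week libraries. With BF BSHlow the largest were *Ccr7*, the receptor for CCL19 and CCL21, which rose by 4.44, and *Aldh1a1*, a retinal dehydrogenase of the epithelium, which fell by 4.10 (adjusted p = 0.000208 and 4.28e-07). *Ccl19* rose by 4.27 (adjusted p = 0.0328), a call lost with limma-voom (0.286) and without non-tumor replicate 1 or 2 or any normal colon library (0.0538 to 0.0793). *Glycam1*, a ligand of L-selectin on high endothelial venules, was at 0 in the 4 normal colon libraries and at least 10.6-fold lower there. With BF BSHhigh, *Aldh1a1* fell by 4.83, P-selectin (*Selp*) rose by 4.25, *Rarb* rose by 3.52 and *Ccl5* fell by 3.42 (adjusted p = 1.65e-07, 0.000463, 0.00207 and 4.01e-05 from edgeR). Without normal colon replicate 2 the rise of *Rarb* was 5.32.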

How the data were processed

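Colon RNA-seq of 23 libraries was used. Per the labels and the methods of the study, reads were trimmed with Cutadapt, aligned to mm10 with STAR and quantified with RSEM. The values the authors deposited are RSEM expected counts per gene, not normalized. Of them, 4.24% are not whole, and 1 gene with a text cell was left out.

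After rounding, the quasi-likelihood method of edgeR 4.0.16 was run in R 4.3.3, with TMM scaling, filterByExpr and Benjamini-Hochberg adjustment over all genes tested. Intervals are at 95%. Alternatives were DESeq2 1.42.0, limma-voom (limma 3.58.1), RLE and library size scaling, no filter, all libraries in 1 fit, the replicate number as a block, and fits with 1 library removed. The fits were tested on simulated data. Exon lengths came from GENCODE M21.

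The members and lists were chosen with earlier results of these data known. All members were named, with up to 4 trafficking genes per comparison past both thresholds with the largest fold change and, for *Ccl28*, *Madcam1*, *Itgb7* and *Ccl20*, the 5 nearest profiles.

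Replicates differed by more than sampling noise (chi-square per degree of freedom 16.6 to 126 in 33 pairs). The 3 columns of the BF BSHhigh tumors have no replicate numbers.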

Additional observations from a re-analysis of the deposited data

Results flagged for a closer look

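Among 50 sets of 4 libraries (10 members in 5 groups), 6 held a library far from the other 3 by Dixon's test, where chance gives about 1 in 20. *Ccr6* was at 11.04 CPM in replicate 3 of the BF BSHhigh non-tumor tissues, which also had the highest B cell sum. *Madcam1* was at 0.978 CPM in replicate 1 of the BF BSHlow tumors, above the other BF BSHlow tumors and below every BF BSHhigh tumor. *Ccl25* was at 4.23 CPM in replicate 3 of the BF BSHlow non-tumor tissues. *Ccr3* was at 0.0575 CPM in 1 BF BSHlow non-tumor library, at 0.0892 CPM in 1 BF BSHhigh and at 0.0820 CPM in 1 BF BSHlow library of normal colon, each of which is 1 count against 0 in the others.

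The effect of BF BSHhigh in tumors differed from that in non-tumor tissues for *Ccl28* by 3.92 on the log2 scale and for *2610528A11Rik* by 5.82, both past the thresholds of the interaction term in edgeR.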

How the results depend on the processing

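The counts of members past both thresholds between the strains in non-tumor tissues and normal colon, and those between BF BSHlow tumor and non-tumor tissues and between the ages with BF BSHhigh, stayed within 1.5 times under every alternative. Between tumors, 2 members became 1 with limma-voom and 4 with all libraries in 1 fit, and 0 to 2 when each library was left out. Between tumor and non-tumor tissues with BF BSHhigh, 2 became 1 with library size scaling, without the filter and with limma-voom, and 1 to 3 with libraries left out. For the interaction, 1 became 2 with DESeq2 and 0 with limma-voom, and 1 to 2 with libraries left out. Between the ages with BF BSHlow, 8 became 4 with limma-voom and 5 with the replicate block, and 5 to 8 with libraries left out. The causes were not tested. Correlations of same-numbered libraries were between -0.17 and 0.26, and no comparison had every pair above 0.1. For tumor against non-tumor with BF BSHlow they were 0.158, -0.084, 0.018 and 0.106 for replicates 1 to 4. Such values show no pairing by number and cannot exclude that same-numbered libraries share a mouse. The block also lost *Ccl20* between the ages with BF BSHhigh, removed *Ccr10* through the filter in both age comparisons and for tumor against non-tumor with BF BSHlow, and changed no other call of a member. No paired analysis was possible because the columns carry no replicate numbers where BF BSHhigh tumors enter.

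Signs turned only in differences that passed no threshold. Between the strains in non-tumor tissues, *Ccr10* was at 0.19 with limma-voom and 0.0039 with all libraries, and -0.72 to 0.74 with libraries left out. *Madcam1* was at 0.096 with limma-voom and 0.081 with the replicate block, and -0.32 to 0.44 with libraries left out. With libraries left out, *Ccl25* was between -0.22 and 0.018, *Itgb7* between -0.38 and 0.46, *Ccr6* between -0.81 and 0.52, *Itga4* between -0.18 and 0.33 and *Ccl20* between -0.012 and 0.60. In normal colon, *Ccl20* was between -0.025 and 0.62 and *Ccl28* between -0.0043 and 0.20. *Ccl25* was between -0.17 and 0.13 between tumors, between -0.14 and 0.15 for tumor against non-tumor with BF BSHlow, between -0.012 and 0.22 with BF BSHhigh and between -0.070 and 0.22 for the interaction. With BF BSHlow it was also at -0.0053 with RLE scaling, -0.0031 with DESeq2, -0.00081 with limma-voom and -0.0094 with the replicate block.

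Library size scaling moved the median of all genes for tumor against non-tumor with BF BSHlow from 0.04 to 0.37, with 3999 genes higher and 2510 lower in place of 2751 and 3205. With BF BSHhigh it gave 3534 and 1807 in place of 2398 and 2433, and between the ages with BF BSHhigh 3233 and 832 in place of 2611 and 1174. Counts past the thresholds over all genes between tumors were 73 with edgeR, 534 with DESeq2, 41 with limma-voom, 320 without the filter and 578 with all libraries. With a library left out they were between 0 and 240. In non-tumor tissues they were 0, with 59 in DESeq2, 1 with all libraries and 1 with the replicate block. In normal colon they were 1, with 27 in DESeq2, 5 without the filter and 2 with all libraries. With a library left out there they were between 0 and 37. For the interaction they were 161, with 386 in DESeq2, 0 in limma-voom and 263 with all libraries. *Ccr3* and *Ccr10* have too few counts for a small difference to be detected.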
